A study of Laccaria bicolor with 37 samples.

Results

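Gene model 671860 is 1 of 23130 gene models counted in mycelium of the ectomycorrhizal fungus Laccaria bicolor S238N, and it was followed here across all 13 groups of a time course with poplar. It was taken by its number, and it is 1 of 6 gene models that the study annotates as Major Intrinsic Protein (MIP) family transporters. The study names it an aquaporin and singled it out from EcM and FLM libraries of 14 days post-inoculation (dpi) together with fruiting bodies. There it was raised over FLM in EcM only, and the fruiting bodies are not among these libraries. Every difference below that uses an EcM or FLM library of 14 dpi is therefore given as a description, without a test.

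Aquaporins are channel proteins of the MIP family that sit in cell membranes and let water pass along osmotic gradients. Some members, the aquaglyceroporins, also pass glycerol and other small uncharged solutes. In an ectomycorrhiza, fungal hyphae sheathe the fine root and grow between its outer cells, where water, nutrients and sugars move between plant and fungus, and fungal aquaporins are studied for their part in that exchange.

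The study compared RNA of 3 kinds of mycelium of L. bicolor S238N, cultured on plates with or without rooted cuttings of Populus tremula x alba 717-1B4. Ectomycorrhizal material (EcM, 12 libraries at 3, 7, 14 and 21 dpi) was everything taken from the co-culture no farther than 0.5 cm from a root, root tissue included. Extramatrical mycelium (ExM, 11 libraries at the same days) was fungal material of the co-cultures beyond that distance. Free-living mycelium (FLM, 14 libraries at those days and at 0 dpi) grew on plates that held no plant. Each group had 3 libraries, apart from ExM at 14 dpi and FLM at 0 dpi with 2 each. The replicates are named as biological in the labels, which do not say which plates or plants they came from, and EcM and ExM are parts of the same co-culture system rather than separate treatments.

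Libraries held 13.8 to 36.8 M (megacounts) of counted reads, with a median of 20.7 M. The EcM label was checked with 5 genes that the study names as marks of the symbiosis, among them the small secreted proteins MiSSP17 and MiSSP8. Their summed level lay at 39.1 to 64.4 counts per megacount in EcM at 14 dpi against 1.47 to 1.53 in FLM at 14 dpi, and at 16.1 to 35.4 in EcM at 21 dpi against 2.41 to 3.04 in FLM at 21 dpi. All 5 were higher in every EcM library than in any FLM library at 14 and 21 dpi, and 4 of 5 at 7 dpi, whereas MiSSP17 was at 0 counts in at least 1 FLM library of both later days. Of the 5, an Rh-like ammonium transporter had only 4 to 7 reads per EcM library and 0 to 4 per FLM library at 21 dpi. At 3 dpi the sum was 3.42 to 6.20 in EcM against 0.61 to 1.56 in FLM. MiSSP17 and a gti1/pac2 domain protein stood apart at that day. MiSSP8, a hydrophobin and the Rh-like ammonium transporter overlapped between EcM and FLM, so the label check was weaker at 3 dpi. The study lists genes such as MiSSP17 for their level in EcM of these same libraries, so the list as a whole is not independent evidence, although it gives MiSSP8 as identified in earlier work, and the part of these genes in the aquaporin result was not tested.

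The aquaporin was detected in every library, with 305 to 3694 reads, which gives a counting error of 1.65% to 5.73%. Its level is given as counts per megacount (CPM), the reads divided by the library total after scaling by the trimmed mean of M-values (TMM). In EcM it lay at 45.7, 38.7 and 24.4 CPM at 3 dpi, at 42.5, 51.6 and 47.6 CPM at 7 dpi, at 100.0, 164.9 and 133.5 CPM at 14 dpi, and at 161.0, 171.9 and 186.4 CPM at 21 dpi. The EcM libraries of 14 and 21 dpi stood apart from all the others, and those of 3 dpi were the most uneven relative to their mean, replicate 3 being the lowest EcM library of the time course.

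In ExM the level was 17.7, 17.3 and 16.7 CPM at 3 dpi, 22.3, 21.9 and 23.6 CPM at 7 dpi, 21.4 and 25.2 CPM at 14 dpi, and 39.5, 52.5 and 53.1 CPM at 21 dpi. FLM held 30.2 and 12.7 CPM at 0 dpi, 21.0, 13.1 and 21.3 CPM at 3 dpi, 16.6, 24.4 and 16.0 CPM at 7 dpi, 20.9, 21.3 and 19.5 CPM at 14 dpi, and 51.3, 28.3 and 50.7 CPM at 21 dpi. The ExM and FLM libraries up to 14 dpi thus covered 1 range, 12.7 to 30.2 CPM over 19 libraries, and both kinds had higher means at 21 dpi. Within FLM, the pair of libraries at 0 dpi differed most from each other, and replicate 2 of 21 dpi, at 28.3 CPM, still lay inside that range.

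**Figure D1:**
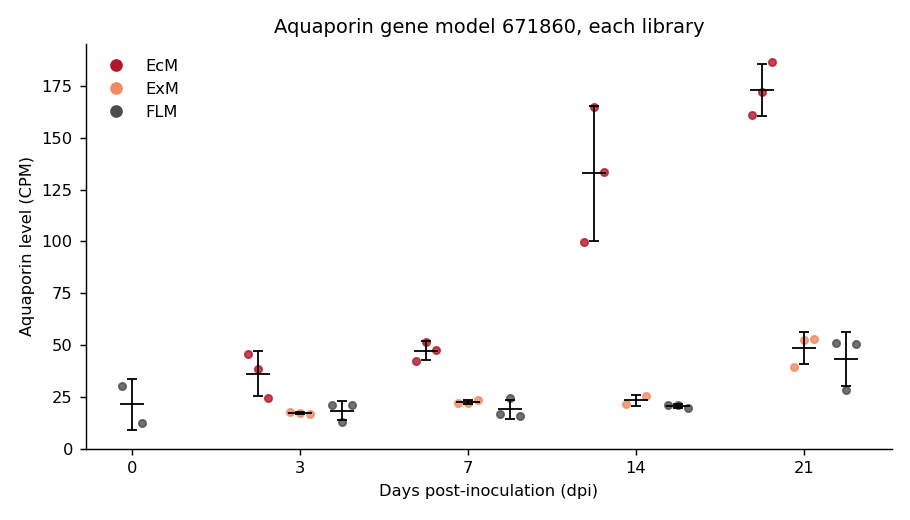
Level of the aquaporin gene model 671860 in CPM (vertical axis) against days post-inoculation, with 1 point per library, EcM in red, ExM in orange and FLM in grey; horizontal bars and whiskers are the group mean and SD. The 3 EcM libraries lie above all ExM and FLM libraries of the same day from 3 to 21 dpi, and reach 161.0 to 186.4 CPM at 21 dpi.

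Ordered by mean level, the groups ran from EcM at 21 dpi (173 ± 12.7 CPM, SD, n = 3) and EcM at 14 dpi (133 ± 32.5 CPM, SD, n = 3) to ExM at 21 dpi (48.4 ± 7.72 CPM, n = 3), EcM at 7 dpi (47.2 ± 4.54 CPM, n = 3), FLM at 21 dpi (43.4 ± 13.1 CPM, n = 3) and EcM at 3 dpi (36.3 ± 10.8 CPM, n = 3). The other 7 groups, ExM at 3, 7 and 14 dpi and FLM at 0, 3, 7 and 14 dpi, had means of 17.2 to 23.3 CPM. Of the 12 pairs of neighbours in this order, 11 had overlapping libraries. The exception was the step between EcM at 14 dpi, with 100.0 CPM in its lowest library, and ExM at 21 dpi, with 53.1 CPM in its highest.

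The rank of the aquaporin among all transcripts was read from the deposited RPKM values, reads per kilobase of transcript and megacount of reads, since levels of different genes compare only per length. In EcM at 21 dpi its RPKM exceeded that of 96.1% to 96.9% of the gene models detected in the same library, against 71.4% to 85.6% in FLM at 21 dpi. The lowest position, 52.9%, was in an FLM library of 0 dpi.

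Comparing EcM with FLM of the same day asks whether the aquaporin transcript differed between mycelium at the root and mycelium without a plant. At 7 dpi it was 2.50-fold higher in EcM, or 1.32 ± 0.27 on the log2 scale (SE, adjusted p = 0.0016), and at 21 dpi 3.99-fold higher, or 2.00 ± 0.27 (SE, adjusted p = 2e-06). These tests are edgeR quasi-likelihood F-tests with Benjamini-Hochberg adjustment over 15533 gene models, and a gene model was called at an adjusted p under 0.05 with a log2 change of at least 1 in size. Over all gene models 3.92% were called at 7 dpi and 5.63% at 21 dpi, and the aquaporin was 1 of them at both days.

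At 3 dpi the EcM libraries were also the higher ones, at 24.4 to 45.7 CPM against 13.1 to 21.3 CPM in FLM. The log2 difference was 0.98 ± 0.27 (SE, 95% interval 0.43 to 1.53) with an adjusted p of 0.027 in edgeR, just under the fold threshold, so the aquaporin was not among the 1.93% of gene models called at that day. Leaving out EcM day 3 replicate 3, the low library, gave 1.17 and an adjusted p of 0.0086, which passed both thresholds. Leaving out any other of the 6 libraries gave 0.76 to 1.08, and the adjusted p rose to between 0.057 and 0.16. With only the 6 libraries compared in the fit, the adjusted p was 0.14.

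At 14 dpi the difference was 2.69 ± 0.27 on the log2 scale (SE, 6.44-fold), given without a test. The lowest EcM library held 100.0 CPM and the highest FLM library 21.3 CPM, in a comparison in which 6.8% of all gene models were called. Material of EcM, ExM and FLM is bulk RNA, in which fewer hyphae of a kind and less transcript per hypha cannot be told apart. EcM contained poplar root as well, and levels there are relative to all reads placed on fungal transcripts.

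**Figure D2:**
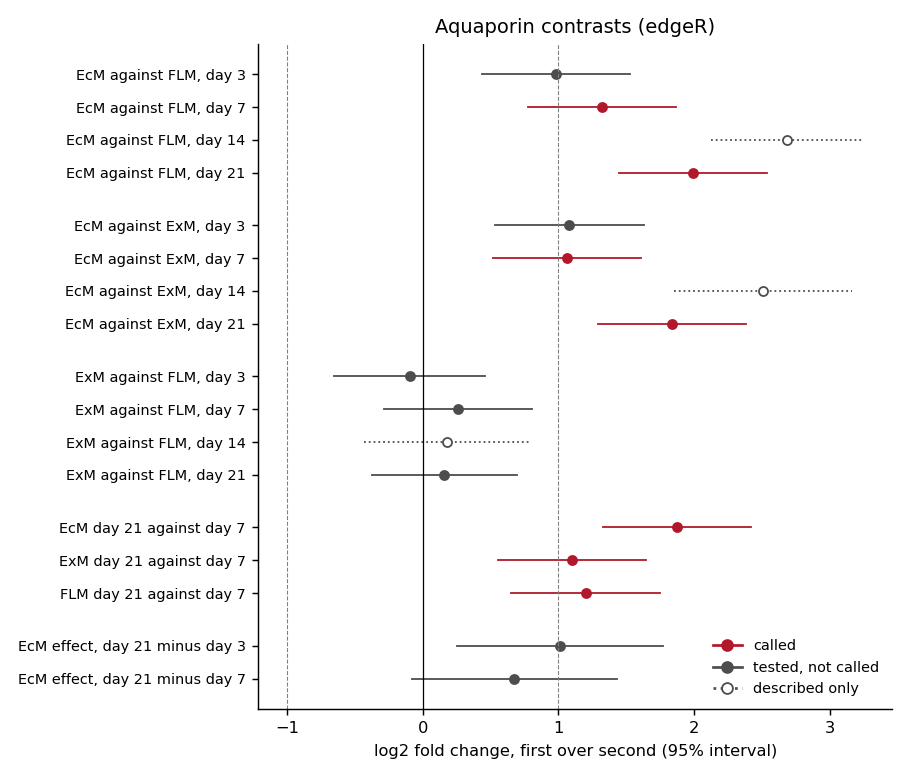
Log2 fold changes of the aquaporin (horizontal axis, the first-named group over the second) with 95% intervals from the edgeR fit; dashed lines mark a change of 1 in size, red marks contrasts that were called, grey filled points those tested and not called, and open points with dotted lines those described without a test. EcM stands to the right of 0 against FLM and against ExM at all 4 days, while the 4 intervals of ExM against FLM include 0.

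EcM and ExM both came from co-cultures and differ in their distance from the root. The aquaporin was higher in EcM at 21 dpi by 1.84 ± 0.26 on the log2 scale (SE, 3.57-fold, adjusted p = 5.5e-06, edgeR), in a comparison with 4.39% of gene models called. At 14 dpi the difference was 2.51 ± 0.32 (SE), a description only, with 100.0 to 164.9 CPM in EcM and 21.4 to 25.2 CPM in ExM, where 5.61% of gene models were called.

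Earlier the contrast between EcM and ExM was smaller and its calls less stable. At 7 dpi the aquaporin was higher by 1.06 ± 0.26 (SE, adjusted p = 0.044, edgeR), 1 of the 0.303% of gene models called, with 42.5 to 51.6 CPM in EcM and 21.9 to 23.6 CPM in ExM. This call was lost with any 1 of the 6 libraries left out (adjusted p 0.073 to 0.19), with the replicate number as a block (1.06, adjusted p = 0.066) and without the low-count filter (1.06, adjusted p = 0.053). At 3 dpi the difference was 1.08 ± 0.27 (SE, 95% interval 0.53 to 1.63), with an adjusted p of 0.26 in edgeR. It was not called, in a comparison where 0.0386% of gene models were called. Without EcM day 3 replicate 3 it was 1.30 with an adjusted p of 0.034. With any other library of 3 dpi left out it was 0.89 to 1.11, with an adjusted p of 0.66 or more. At both days 3 of 3 EcM libraries lay above every ExM library.

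ExM was set against FLM to ask whether mycelium of the co-culture away from the root differed from mycelium without a plant. The log2 difference of the aquaporin was -0.10 ± 0.27 at 3 dpi, 0.26 ± 0.27 at 7 dpi and 0.16 ± 0.26 at 21 dpi (SE, edgeR adjusted p = 0.90, 0.66 and 0.77), and none of these was called, beside 1.52%, 2.02% and 1.65% of all gene models. The 95% intervals ran from -0.65 to 0.46 at 3 dpi, from -0.29 to 0.81 at 7 dpi and from -0.38 to 0.69 at 21 dpi, so a 2-fold difference lay outside each of them, and smaller differences lay inside them. At 14 dpi the value was 0.18 ± 0.30 (SE), without a test. EcM and ExM were both compared with the same FLM libraries, so their differences from FLM are not independent of each other.

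Culture age was examined next, between 21 and 7 dpi, so that no library of 14 dpi entered; this comparison was added after the data had been seen. The aquaporin was higher at 21 dpi than at 7 dpi in each kind of mycelium. The log2 rise was 1.87 ± 0.26 in EcM (SE, adjusted p = 1.6e-06), 1.10 ± 0.26 in ExM (SE, adjusted p = 0.0014) and 1.20 ± 0.27 in FLM (SE, adjusted p = 0.00043), all in edgeR. These were comparisons in which many genes changed, 14.6% of gene models in EcM, 11.3% in ExM and 16.3% in FLM. The rise in FLM was present on plates that held no plant.

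The timing differed in description. Between 7 and 3 dpi no kind had a called change, with 0.37 ± 0.26 in EcM, 0.39 ± 0.27 in ExM and 0.04 ± 0.27 in FLM (SE, edgeR adjusted p = 0.32, 0.33 and 0.96), where 3.82%, 3.14% and 1.42% of gene models were called. EcM gained 1.49 ± 0.26 at 14 over 7 dpi and a further 0.38 ± 0.25 at 21 over 14 dpi, whereas FLM gained 0.12 ± 0.27 at 14 over 7 dpi and 1.08 ± 0.26 at 21 over 14 dpi (SE, no test). ExM gained 0.04 ± 0.30 at 14 over 7 dpi (SE, adjusted p = 0.94; 4.05% called) and 1.06 ± 0.30 at 21 over 14 dpi (SE, adjusted p = 0.017; 3.88% called, edgeR). The last call was lost without ExM day 14 replicate 1 (0.95, adjusted p = 0.16), ExM day 14 replicate 2 (1.18, 0.058), ExM day 21 replicate 2 (0.99, 0.053) and ExM day 21 replicate 3 (0.98, 0.05). At the start of the culture, FLM at 3 dpi and at 0 dpi differed by -0.20 ± 0.30 (SE, adjusted p = 0.90; 0.0451% called), and the sign of this value turned with FLM day 0 replicate 1 left out (0.54).

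Whether the difference between EcM and FLM itself grew with time was tested as a difference of differences. It was larger at 21 than at 3 dpi by 1.01 ± 0.37 on the log2 scale (SE, 95% interval 0.25 to 1.77), with an edgeR adjusted p of 0.052 that missed the threshold, in a comparison with 5.25% of gene models called. At 21 against 7 dpi it was larger by 0.67 ± 0.37 (SE, adjusted p = 0.20; 5.63% called), and at 7 against 3 dpi by 0.34 ± 0.37 (SE, adjusted p = 0.79; 0.341% called). The first of these passed both thresholds with FLM day 3 replicate 2 left out (1.24, adjusted p = 0.018), EcM day 3 replicate 1 (1.24, 0.025), FLM day 21 replicate 1 (1.15, 0.047) or FLM day 21 replicate 3 (1.14, 0.048). Growth of the EcM difference over time was therefore not resolved by these tests. In description the difference did not rise steadily, being largest at 14 dpi (2.69 ± 0.27, SE, no test) and smaller at 21 dpi (2.00 ± 0.27, SE).

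Among the 6 gene models of the MIP family, 671860 had the highest mean per length in all 13 groups, with group means of 16.97 to 156 RPKM. It was the highest member in 36 of 37 libraries, and the exception was FLM day 0 replicate 2, at 13.6 RPKM for 671860 and 15.2 RPKM for 443240, so that without FLM day 0 replicate 1 the order at 0 dpi turned. All 6 passed the low-count filter. The annotation calls 443240 and 456764 aquaporins as well, and gives 482072, 576801 and 317173 only as members of the family, so their solutes are not stated. Group means ran from 11.3 to 14.3 RPKM for 443240, from 4.17 to 7.53 RPKM for 576801, from 3.39 to 7.26 RPKM for 317173, from 3.33 to 24.6 RPKM for 482072 and from 0.118 to 2.33 RPKM for 456764. The highest group mean of 671860 was 9.17 times its lowest, against 19.7 times for the scarce 456764, 7.38 times for 482072, 2.14 times for 317173, 1.81 times for 576801 and 1.27 times for 443240. The lowest mean of 456764, in EcM at 21 dpi, rests on 2 reads per library, too few to count as measured, so its ratio is uncertain.

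**Figure D3:**
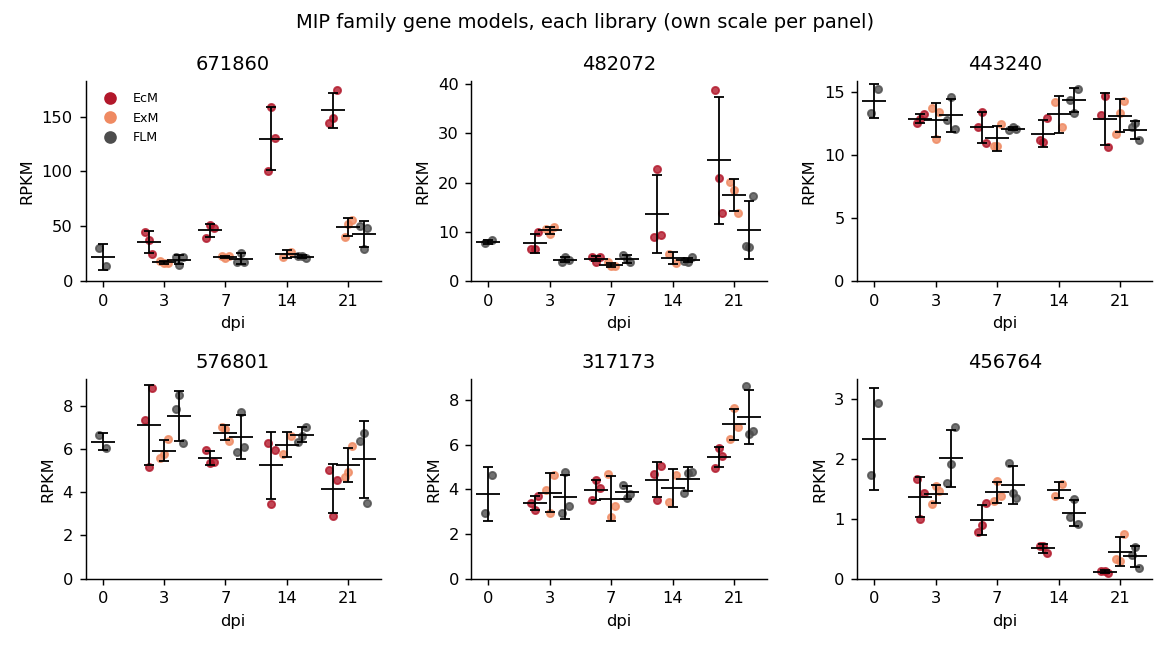
Deposited RPKM of the 6 MIP family gene models (a panel each, with its own vertical scale) against days post-inoculation, with points for libraries and bars for the group mean and SD, EcM in red, ExM in orange and FLM in grey. Gene model 671860 reaches 144 to 174 RPKM in EcM at 21 dpi, 443240 stays between group means of 11.3 and 14.3 RPKM, and 456764 is lowest in EcM at 21 dpi.

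The other 5 members were tested in the same edgeR fit. In EcM against FLM none of the 5 was called at 3 or 7 dpi, and at 21 dpi 1 was higher (482072) and 1 lower (456764), beside 1.93%, 3.92% and 5.63% of all gene models called at these days. Their log2 differences at 21 dpi had a median of -0.24, against -0.01 over all gene models. The levels of 482072 at 21 dpi were 38.8, 20.9 and 13.9 RPKM in EcM, against 7.10, 6.83 and 17.2 RPKM in FLM, so that the groups overlapped. Its log2 difference was 1.36 ± 0.35 (SE, adjusted p = 0.0035), and it was not called without EcM day 21 replicate 1, its highest library (0.87, adjusted p = 0.063). The study also lists 482072 among gene models higher in EcM at 14 dpi, so its direction is not independent evidence.

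Gene model 456764 was counted with 2 reads in each EcM library of 21 dpi, against 4 to 10 reads in FLM at 21 dpi, at or near the floor of 3 reads below which a level was not taken as measured. The ratio of the summed reads, scaled to library size, was 0.346 for EcM over FLM, with an exact 95% interval of 0.114 to 0.887 that covers counting error only. Against ExM at 21 dpi, with 5 to 17 reads, the ratio was 0.270 (0.0916 to 0.666). The edgeR call against FLM (adjusted p = 0.038) was lost in DESeq2 (adjusted p = 0.074) and with any EcM library of 21 dpi left out (adjusted p 0.056 to 0.16), FLM day 21 replicate 1 (0.084) or FLM day 21 replicate 2 (0.18).

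Elsewhere the family showed few calls. In ExM against FLM, 1 of the 5 was higher at 3 dpi, 482072 by 1.35 ± 0.37 (SE, adjusted p = 0.034, edgeR), and none at 7 or 21 dpi, beside 1.52%, 2.02% and 1.65% of all gene models called. The call for 482072 was lost with any 1 of the 6 libraries left out (adjusted p 0.065 to 0.13). In EcM against ExM, none of the 5 was called at 3 or 7 dpi, and 456764 alone at 21 dpi, as lower in EcM, beside 0.0386%, 0.303% and 4.39% of all gene models called. The call for 456764 was lost without EcM day 21 replicate 3 (adjusted p = 0.052) or ExM day 21 replicate 3 (adjusted p = 0.17). At 3 dpi 482072 had 9.54 to 10.9 RPKM in ExM and 3.91 to 4.89 RPKM in FLM, and in ExM it was lower at 7 than at 3 dpi by 1.64 ± 0.38 on the log2 scale (SE, adjusted p = 0.0022, edgeR).

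With age, 482072 moved in the same direction as 671860. It was higher at 21 than at 7 dpi by 2.54 ± 0.38 in EcM (SE, adjusted p = 2.9e-06), by 2.34 ± 0.38 in ExM (SE, adjusted p = 1.6e-05) and by 1.33 ± 0.37 in FLM (SE, adjusted p = 0.0036), the last not called without FLM day 21 replicate 3 (0.70, adjusted p = 0.11). Gene model 456764 went the other way, lower at 21 than at 7 dpi by 1.66 ± 0.32 in ExM and 1.98 ± 0.33 in FLM (SE, adjusted p = 0.0001 and 9.2e-06, edgeR), while in EcM 6 reads over 3 libraries at 21 dpi, against 62 at 7 dpi, gave a ratio of 0.125 for the later day (exact 95% interval 0.0443 to 0.289). In FLM, 317173 was also called higher by 1.01 ± 0.19 (SE, adjusted p = 3.7e-05), a value that fell just under the fold threshold in several alternatives. Its rise was 0.91 ± 0.19 in ExM and 0.57 ± 0.20 in EcM (SE, edgeR adjusted p = 0.00026 and 0.016), both under the fold threshold. In counts, 1 of 5 was higher and 1 lower in EcM and in ExM, and 2 higher and 1 lower in FLM, beside the shares over all gene models given above.

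The makeup of the family's transcript pool followed from this. The 6 gene models summed to 203 ± 8.25 RPKM in EcM at 21 dpi (SD, n = 3), against 92.6 ± 8.16 RPKM in ExM and 78.4 ± 13.7 RPKM in FLM of that day. Of this sum 671860 made up 69.8%, 77.0% and 83.4% in the EcM libraries, against 48.1%, 54.0% and 57.2% in ExM and 59.1%, 47.2% and 55.7% in FLM at 21 dpi. At 14 dpi its share was 76.1% to 79.5% in EcM, 41.8% to 48.3% in ExM and 39.3% to 43.5% in FLM. The EcM libraries of these days did not overlap with the other kinds in this share. Neither did those of 7 dpi, at 59.1% to 64.6% in EcM, 45.1% to 46.2% in ExM and 37.7% to 46.8% in FLM. The EcM libraries of 3 dpi, at 40.1% to 58.7%, overlapped with FLM at 29.98% to 43.5%. Over all 37 libraries the share lay between 26.9% and 83.4%.

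**Figure D4:**
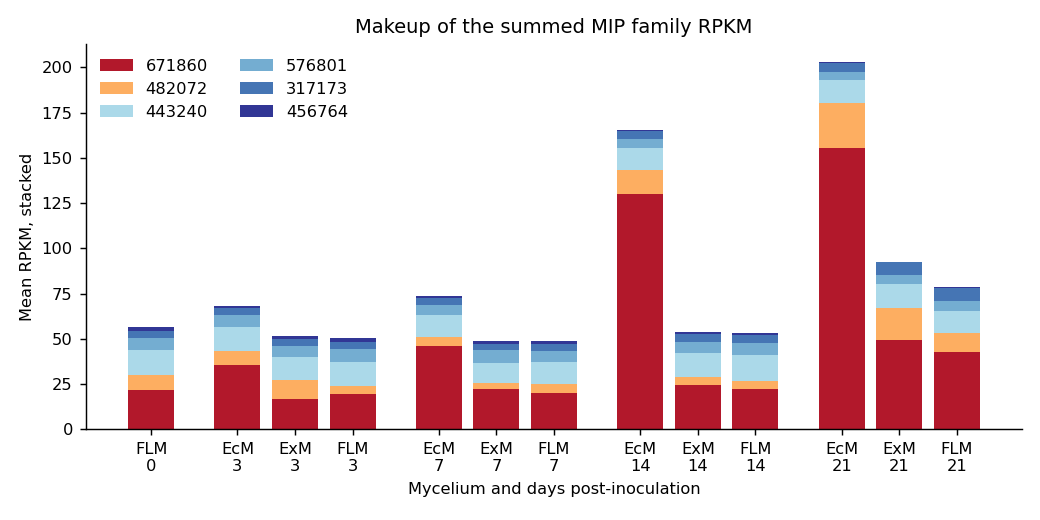
Mean deposited RPKM of the 6 MIP family gene models, stacked from 0, for each group ordered by day and, within a day, EcM, ExM and FLM. The red section, 671860, has means of 130 and 156 RPKM in EcM at 14 and 21 dpi, and the summed height reaches 203 RPKM in EcM at 21 dpi.

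A second family of membrane proteins for small solutes, the 5 gene models annotated as ammonia transporter channels, which move ammonium or ammonia across membranes, was set beside it. Of these 5, 1 was higher in EcM than in FLM at 3 dpi, 1 at 7 dpi and 2 at 21 dpi, beside 1.93%, 3.92% and 5.63% of all gene models called, and none was lower, with a median log2 difference of 1.66 over the 5 at 21 dpi against -0.01 over all gene models. The median includes the Rh-like ammonium transporter of the label check, with 4 to 7 reads in EcM and 0 to 4 in FLM libraries of 21 dpi. These lie near the floor of 3 reads, so its log2 difference of 1.98 is uncertain. In EcM against ExM, 0, 1 and 2 of the 5 were higher at these days, beside 0.0386%, 0.303% and 4.39% of all gene models called, and none was lower; 1 of the 2 at 21 dpi, 484007, fell under the fold threshold without EcM day 21 replicate 1 (0.99). In ExM against FLM none was called at 3, 7 or 21 dpi, beside 1.52%, 2.02% and 1.65%. The study listed 4 of these 5 for their change in EcM at 14 dpi, so their direction is not independent evidence.

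The gene models whose pattern was most like that of 671860 were found by the Pearson correlation of group mean log2 CPM over the 13 groups, among 12633 other gene models with an average log2 CPM of at least 1. They were 671127 (r = 0.987), 399488 (0.977), 607935 (0.973), 684273 (0.970) and 297102 (0.969). These correlations are descriptions across groups that share libraries and culture ages, and r exceeded 0.9 for 122 gene models, 0.966% of those compared. The study annotates 399488 as a transcription factor with a zinc cluster and 297102 as a membrane transporter of the ATPase kind, and gives 671127 no function.

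The size of the pattern differed among them. Between the highest and the lowest group mean, 671860 spanned 3.32 on the log2 scale, 607935 and 297102 each spanned 3.26, 671127 spanned 2.60, 684273 spanned 1.57 and 399488 only 0.76. In CPM, 671127 averaged 76.0 ± 0.91 in EcM and 25.5 ± 7.47 in FLM at 21 dpi (SD, n = 3 each), and 399488 averaged 80.8 ± 1.93 in EcM and 65.1 ± 4.05 in FLM at 21 dpi (SD, n = 3 each). The level of 684273 in EcM at 21 dpi ran from 107 to 603 CPM over its 3 libraries, so its mean there rested on 1 of them. With EcM at 14 and 21 dpi left out, r over the other 11 groups was 0.970 for 671127, 0.942 for 684273, 0.930 for 399488, 0.903 for 607935 and 0.880 for 297102. Within the MIP family, r with 671860 over the 13 groups was 0.73 for 482072, 0.60 for 317173, 0.22 for 443240, -0.78 for 576801 and -0.85 for 456764.

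**Figure D5:**
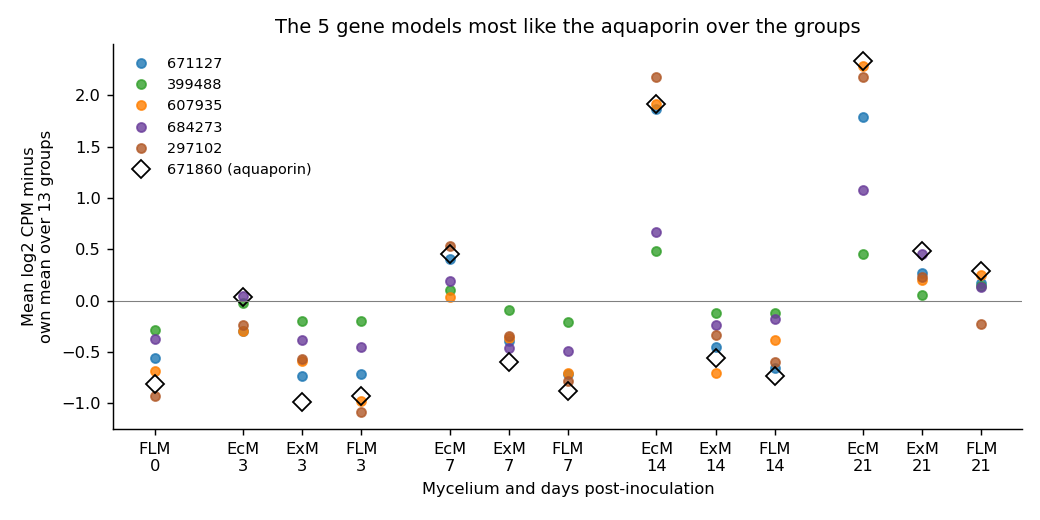
Mean log2 CPM of the 5 gene models most like the aquaporin (coloured points) and of the aquaporin 671860 (open diamonds), each minus its own mean over the 13 groups (vertical axis), for groups ordered by day and, within a day, EcM, ExM and FLM. All 6 are highest in EcM at 14 or 21 dpi, and 399488 spans 0.76 where 671860 spans 3.32.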

How the data were processed

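The authors made stranded mRNA libraries, trimmed the paired reads and placed them on L. bicolor v2 reference transcripts with CLC Genomics Workbench, with several hits allowed per read. The deposited tables hold, per library and gene model, a raw read count, and the deposited RPKM per kilobase of transcript. Whether the count is of unique or of all placed reads is not stated, so near-identical copies are uncertain. Members and lists were chosen with earlier results of these data known. By a fixed rule, the gene models named were 671860, the other 5 of its family and the 5 with the highest correlation. Outside this rule, markers were named for the label check, and 313221 and 484007 of the ammonia transporter family after their values were seen.

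Counts were tested with edgeR 4.0.16 (R 4.3.3) after filterByExpr (minimum count 10, minimum total 15; 15533 gene models), with TMM scaling, 1 coefficient per group over all 37 libraries, and robust two-sided quasi-likelihood F-tests. SE was derived from F. Alternatives were median-of-ratios size factors, DESeq2 1.42.0, no filter, a fit restricted to the groups of a comparison, a block for replicate number, each library left out, and limma 3.58.1 on log2(RPKM + 1), a scale that understates changes of low genes. Correlation used a prior count of 2. Python 3.11.15 wrote tables. In simulated counts of 15533 gene models for EcM against FLM at 3 dpi, edgeR recovered 200 of 200 changed gene models. It made 3 false calls among the unchanged ones. All gene models there had the same spread between libraries, a coefficient of variation of 0.142, against 0.22 estimated for the aquaporin. The planted log2 changes were all larger in size than the aquaporin's 0.98 at 3 dpi. The simulation therefore does not show how often a change like that of the aquaporin would be called.

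Every replicate pair differed by more than sampling noise, with a chi-square over gene models of 4.59 or more per degree of freedom, and p-values measure only the spread between these libraries. Intervals of log2 changes come from the edgeR fit and its spread between libraries. The exact intervals of summed reads cover counting error only, since they pool the libraries of a group and leave out the spread between them. Reads carry no molecular identifiers, so the counting error itself may be larger than these intervals show. Replicate numbers come from the titles, which do not state that same-numbered libraries are paired. In EcM against ExM at 21 dpi the deviations of same-numbered libraries correlated at 0.28 to 0.37. Elsewhere such correlations lay between -0.63 and 0.51, so these values do not settle whether the libraries were paired. The block for replicate number left the call at 21 dpi in place. Sequences and coordinates of these gene models were not used here.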

Additional observations from a re-analysis of the deposited data

Results flagged for a closer look

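In the ammonia transporter channel family, which was set beside the aquaporins, the difference between EcM and FLM differed between days for 2 gene models by the edgeR test of the difference itself (Benjamini-Hochberg adjusted over 15533 gene models). Over all gene models 5.25% were called at 21 minus 3 dpi and 5.63% at 21 minus 7 dpi. For 313221 it was larger at 21 than at 3 dpi by 2.33 on the log2 scale (adjusted p = 6.4e-05) and larger at 21 than at 7 dpi by 1.49 (adjusted p = 0.0041). For 484007 it was larger at 21 than at 3 dpi by 1.78 (adjusted p = 2.1e-05) and larger at 21 than at 7 dpi by 1.01 (adjusted p = 0.0069), the last of which fell under the fold threshold without EcM day 7 replicate 1 (0.96), EcM day 21 replicate 1 (0.90), EcM day 21 replicate 3 (0.998) or FLM day 21 replicate 3 (0.89). EcM libraries were the higher ones in 3 of 3 at 21 dpi for both. From 7 to 21 dpi 313221 changed by 0.71 in EcM and by -0.78 in FLM (edgeR adjusted p = 0.0093 and 0.021). For 484007 these changes were 0.28 in EcM and -0.73 in FLM (edgeR adjusted p = 0.19 and 0.0022), and none of them was called. The wider difference at 21 than at 7 dpi thus includes a lower level in FLM. From 14 to 21 dpi the log2 change in EcM was -1.75 for 313221 and -1.04 for 484007 (no test).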

How the results depend on the processing

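Over 28 comparisons of the aquaporin and 350 alternative values, 321 kept their direction and their side of the thresholds or, where no test was made, moved by less than the spread between replicates. The call for EcM against FLM held in every alternative run at 7 dpi (log2 1.17 to 1.32, and 1.18 to 1.504 with a library left out) and at 21 dpi (1.87 to 2.01, and 1.77 to 2.13). The higher level at 21 than at 7 dpi was likewise called in all of them. In EcM against ExM, DESeq2 called 3 dpi (1.07), and 7 dpi was not called without the low-count filter (1.06). For ExM at 21 over 14 dpi, limma on the deposited RPKM gave 0.99, under the fold threshold. The EcM difference at 21 minus 3 dpi passed with median-of-ratios size factors (1.05), DESeq2 (1.05) and limma on RPKM (1.05). In all of these the cause was not tested.

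With each library left out in turn, EcM against FLM at 3 dpi ranged from 0.76 to 1.17, ExM against FLM from 0.051 to 0.28 at 14 dpi and from -0.073 to 0.29 at 21 dpi, and EcM against ExM from 0.89 to 1.30 at 3 dpi and from 0.99 to 1.13 at 7 dpi. ExM ranged from -0.094 to 0.13 at 14 over 7 dpi and from 0.95 to 1.18 at 21 over 14 dpi. FLM ranged from -0.69 to 0.54 at 3 over 0 dpi and from -0.18 to 0.16 at 7 over 3 dpi, and the EcM difference at 21 minus 3 dpi from 0.81 to 1.24. The signs that turned belonged to values that were not called.

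Outside EcM against ExM at 21 dpi, deviations of same-numbered libraries had correlations between -0.63 and 0.51. With the replicate block, EcM against ExM at 7 dpi kept its value (1.06) and lost its call, and no other call of the aquaporin changed; at 21 dpi the block gave 1.84 in the full fit and in a fit of those libraries alone.

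Of the 5 gene models most like the aquaporin, 1 was kept with Spearman's rho, 3 with deposited RPKM and 3 without EcM at 14 and 21 dpi. The order of the 13 groups kept 10 ranks with unscaled CPM and 10 with RPKM. Counts of all called gene models fell by over 1.5 times in fits of only the groups compared: at 3 dpi to 136, against 300, for EcM over FLM and to 105, against 236, for ExM over FLM; at 7 dpi to 284, against 609, and to 174, against 314; at 21 dpi to 139, against 257, for ExM over FLM. For ExM over FLM at 14 dpi the count was 67 in that fit and 28 in DESeq2, against 7. For EcM over ExM at 3 dpi the count was 0 in that fit and 15 in DESeq2, against 6. For FLM at 3 over 0 dpi it was 0 in that fit, 22 in DESeq2 and 3 with limma on RPKM, against 7. Limma on RPKM also gave 363 for EcM over FLM and 207 for ExM over FLM at 7 dpi, and 146, against 220, for FLM at 7 over 3 dpi.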
